A study of Rattus norvegicus with 16 samples.

Results

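The circadian clock genes described here are 7 rows of a table of 32754 rat genes: Per1 (ENSRNOG00000007387), Per2 (ENSRNOG00000020254), Per3 (ENSRNOG00000018413), Dbp (ENSRNOG00000021027), Arntl, also called Bmal1 (ENSRNOG00000014448), Clock (ENSRNOG00000002175) and Nr1d1 (ENSRNOG00000009329). They were chosen by gene ID as core or output genes of the clock. All 7 were found, and all 7 were among the 15035 genes that passed the filter on low counts. The table holds IDs without symbols, and the reference used here matched 0 of them, so the pairing of these IDs with symbols was not checked against a reference.

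Messenger RNA was sequenced from the hippocampus, a brain region needed for memory, of 16 male wild-type Fischer-344 rats, an inbred strain. There were 4 groups of 4 rats: young sedentary, young exercise-trained, old sedentary and old exercise-trained. Young rats were 6 months old and old rats 20 months old when obtained, and the sedentary or training period lasted 10 weeks. All rats lived under 12 hours of light and 12 hours of dark, and they were killed 2 days after behavioral testing ended. The sources used here do not give the hour of day at which each rat was killed. It could therefore not be set against the groups, which limits every clock gene comparison, because these transcripts change over the day.

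The clock is a feedback loop of transcription that runs in most cells with a period of about a day. CLOCK and ARNTL proteins bind together to E-box sequences and switch on the Period genes, Nr1d1 and Dbp. PER proteins then repress CLOCK and ARNTL, while NR1D1 (REV-ERB alpha) represses the Arntl gene. Over a day, in most tissues, Arntl transcript is high when Nr1d1, Dbp and the Period transcripts are low, and Per2 follows Dbp and Nr1d1 by some hours. A shift in the hour of sampling could therefore move Arntl and the output genes in opposite directions. Per1 and Per2 are also induced by neuronal activity and by glucocorticoids.

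Libraries held 8630396 to 14576687 counts, and 18145 to 19268 genes had a count. Trained and sedentary libraries lay apart on the first principal component of log2 CPM (CPM being counts scaled to a common library size). On it, old sedentary replicate 3 lay at -12.7, while replicates 1, 2 and 4 of that group lay from -55.9 to -49.7. Each clock gene had at least 246 counts in every library, the lowest count being that of Arntl, whose values carry the most counting error of the 7. Lane and library batch are not given for the groups and cannot be told apart from training or age.

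With training, averaged over both ages, 3 of the clock genes fell and 1 rose, and neither activator gene passed edgeR's test. Per3, a Period gene, fell at both ages. Per1 fell in young rats, Per2 rose in old rats, and Dbp, which encodes a transcription factor that carries the rhythm to other genes, fell in old rats. In the main edgeR fit, Nr1d1, Arntl and Clock did not pass in any of the 7 comparisons. For training in young rats, other tools and some other edgeR fits called Nr1d1 or Clock, as given with those genes. Without young trained replicate 3, edgeR also called Clock for aging in trained rats (adjusted p = 0.0428) and for training averaged over age (adjusted p = 0.0406). Averaged over age, 4 of the 7 genes passed at an adjusted p below 0.05 in edgeR's quasi-likelihood test, against 33.9% of all genes tested, with 3 lower (18% of all genes tested) and 1 higher (15.9%). The median log2 fold change of the 7 genes was -0.22, and that of all genes tested was -0.02.

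**Figure D1:**
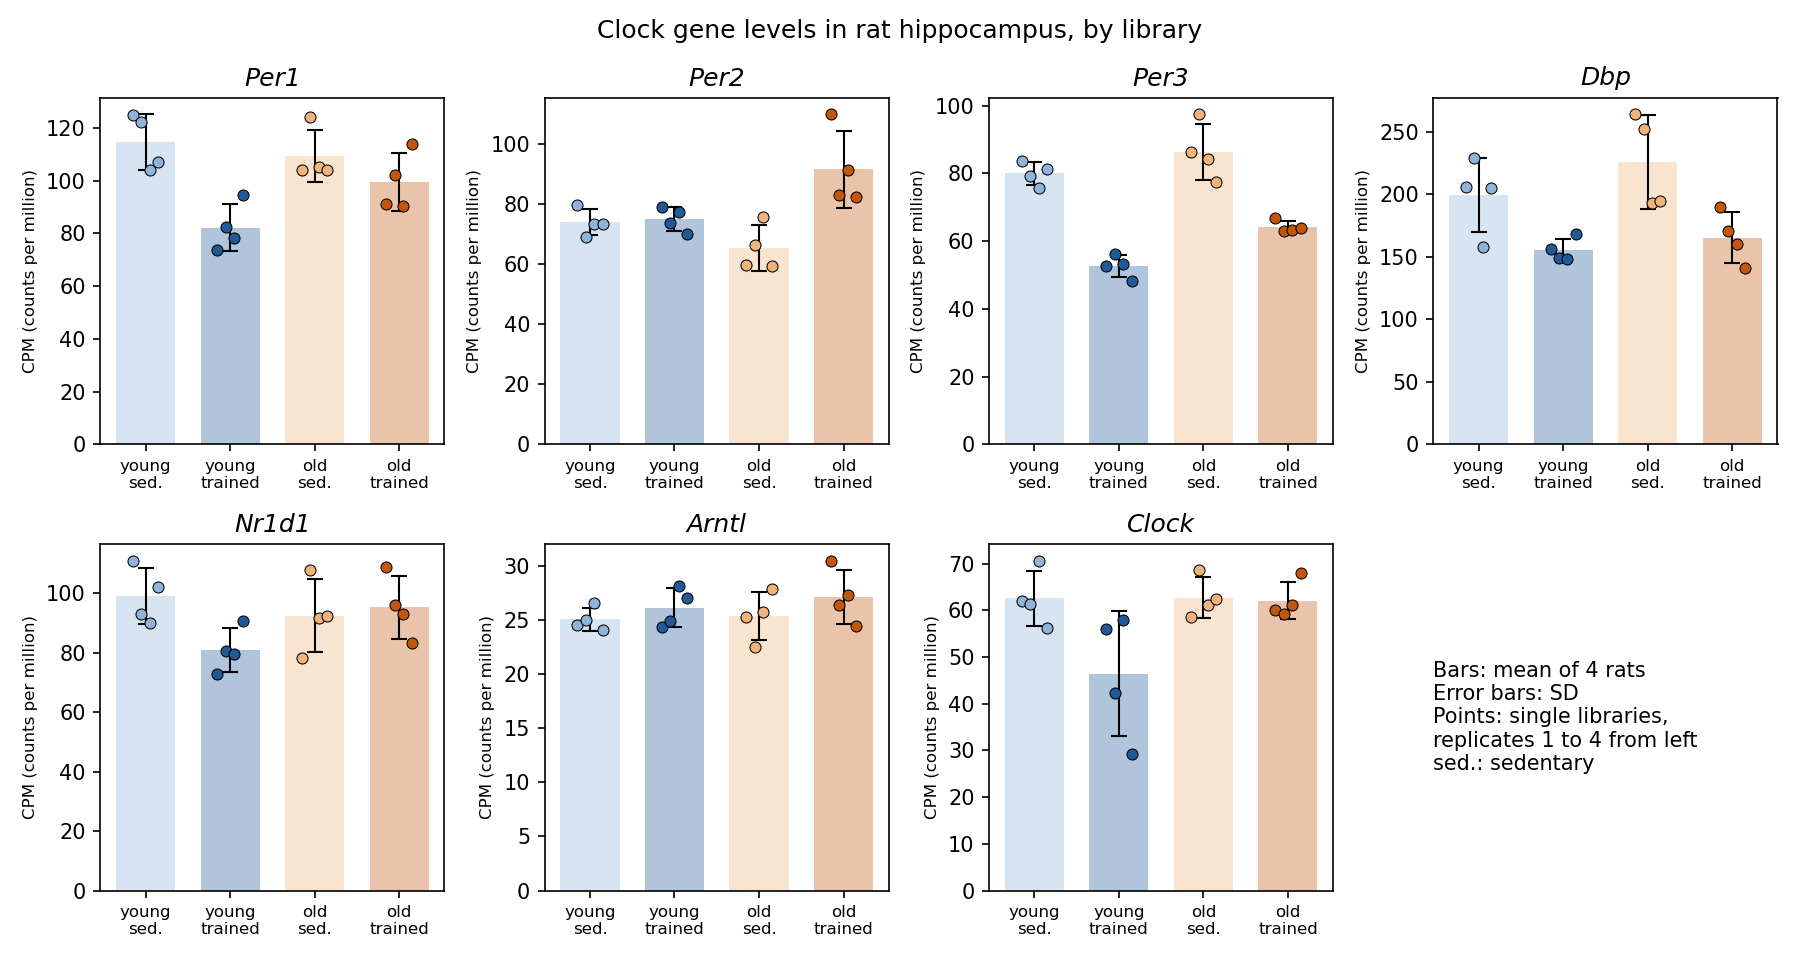
Level of each clock gene in CPM on the vertical axis, for the 4 groups of 4 rats, with bars for group means, error bars for SD and a point for each library. Per3 lay between 48.2 and 66.8 CPM in the 8 trained libraries and between 75.7 and 97.4 CPM in the 8 sedentary libraries, while Arntl lay between 22.5 and 30.5 CPM throughout.

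The 3 genes that passed in old rats are shown with the 250 bases before their start in RefSeq (build GRCr8), 5′ to 3′ on the gene's strand, because Per2 moved against the other 2. Capitals mark any of 4 motifs searched on both strands: the E-box CACGTG, the E-box variant CACGTT, the D-box TTATGTAA bound by DBP and its relatives, and AGGTCA, the core bound by ROR and NR1D1. None of the motifs overlap in these windows.
Per2, chr9:99496994-99497243, minus strand: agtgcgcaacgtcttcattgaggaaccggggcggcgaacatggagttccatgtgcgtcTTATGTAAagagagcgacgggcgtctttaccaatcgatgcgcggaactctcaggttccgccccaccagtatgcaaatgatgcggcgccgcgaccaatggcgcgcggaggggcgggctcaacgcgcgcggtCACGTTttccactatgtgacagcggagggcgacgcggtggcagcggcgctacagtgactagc
Per3, chr5:166777801-166778050, minus strand: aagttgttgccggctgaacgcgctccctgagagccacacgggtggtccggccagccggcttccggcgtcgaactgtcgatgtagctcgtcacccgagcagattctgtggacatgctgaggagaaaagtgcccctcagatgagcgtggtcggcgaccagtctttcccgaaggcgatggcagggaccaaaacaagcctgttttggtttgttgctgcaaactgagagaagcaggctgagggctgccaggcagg
Dbp, chr1:105312006-105312255, plus strand: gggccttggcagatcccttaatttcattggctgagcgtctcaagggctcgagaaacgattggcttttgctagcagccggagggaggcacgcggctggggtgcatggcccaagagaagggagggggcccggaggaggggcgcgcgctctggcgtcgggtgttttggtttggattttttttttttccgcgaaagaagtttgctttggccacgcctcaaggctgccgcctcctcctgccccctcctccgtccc

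The Per2 window held a D-box that began 192 bases before the start and an E-box variant that began 62 bases before it, while the Per3 and Dbp windows held none of the 4 motifs. Of 33469 RefSeq windows of the same length, 0.828% held the D-box and 4.07% the E-box variant. All 7 genes had a window, with 9 windows in all. CACGTG, found in 5.59% of windows, was present in 1 of the 2 Nr1d1 windows, the other of which held CACGTT, and AGGTCA, found in 14.1%, was present in the Arntl window. The windows of Per1 and Clock held none of the 4. These matches describe the letters only, and windows without a match can have the motif elsewhere in the gene.

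The Period genes encode the repressors that close the loop. Per3 stood at 83.8, 79.2, 75.7 and 81.4 CPM in young sedentary rats (replicates 1 to 4) and at 52.7, 56.1, 53.1 and 48.2 CPM in young trained rats. In old rats it stood at 86.2, 97.4, 84.3 and 77.6 CPM when sedentary and at 66.8, 63.0, 63.3 and 63.9 CPM when trained. All 8 trained libraries were below all 8 sedentary libraries, a separation seen in 4.51% of all genes tested. The young sedentary mean of Per3 was 80.0 ± 3.47 CPM (SD, n = 4) and the young trained mean 52.5 ± 3.25 CPM (SD, n = 4). The old sedentary mean was 86.4 ± 8.22 CPM (SD, n = 4) and the old trained mean 64.3 ± 1.75 CPM (SD, n = 4). In young rats Per3 fell by 34.3% (log2 fold change -0.61, SE 0.07, edgeR adjusted p = 0.000262), and in old rats it fell by 25.6% (log2 fold change -0.43, SE 0.07, edgeR adjusted p = 0.0011). Fewer cells that express a gene and less RNA per cell cannot be told apart in bulk tissue. Leaving out any 1 library kept both calls, with log2 fold changes from -0.63 to -0.55 in young and from -0.47 to -0.36 in old rats.

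Per1, a Period gene that light, neuronal activity and stress hormones induce, stood at 125, 122, 104 and 107 CPM in young sedentary and at 73.5, 82.5, 78.1 and 94.6 CPM in young trained rats. These groups did not overlap. Per1 fell by 28.3% with training in young rats (log2 fold change -0.48, SE 0.10, edgeR adjusted p = 0.00484). In old rats it stood at 104, 124, 105 and 104 CPM when sedentary and at 91.2, 102, 90.5 and 114 CPM when trained, and these groups overlapped. The log2 fold change in old rats was -0.14 (SE 0.10, edgeR adjusted p = 0.349, 95% interval -0.35 to 0.08).

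Per2 moved the other way. It stood at 79.8, 69.3, 73.4 and 73.5 CPM in young sedentary and at 79.3, 73.7, 77.5 and 70.2 CPM in young trained rats, and the log2 fold change was 0.02 (SE 0.10, adjusted p = 0.885 in edgeR, 95% interval -0.19 to 0.23). In old rats it stood at 59.9, 66.4, 75.8 and 59.4 CPM when sedentary and at 110, 83.0, 91.4 and 82.6 CPM when trained. All old trained libraries were above all old sedentary libraries, and the highest old sedentary value was that of replicate 3. The mean went from 65.4 ± 7.63 CPM (SD, n = 4) to 91.9 ± 13.1 CPM (SD, n = 4), a rise of 40.3% in the fitted value (log2 fold change 0.49, SE 0.10, edgeR adjusted p = 0.00257). The training difference was larger in old than in young rats by 0.47 on the log2 scale (SE 0.14), which did not pass the test of that difference (edgeR interaction adjusted p = 0.254). Without old sedentary replicate 3 that difference was 0.54 (SE 0.13, edgeR adjusted p = 0.0272).

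The count of Per3 relative to Per2 in the same library does not depend on how libraries are scaled. It was 1.05, 1.14, 1.03 and 1.11 in young sedentary, 0.665, 0.762, 0.685 and 0.687 in young trained, 1.44, 1.47, 1.11 and 1.31 in old sedentary and 0.605, 0.759, 0.692 and 0.774 in old trained rats. The highest trained ratio, 0.774, lay below the lowest sedentary ratio, 1.03. The mean ratio went from 1.08 ± 0.0516 (SD, n = 4) to 0.700 ± 0.0427 (SD, n = 4) with training in young rats and from 1.33 ± 0.162 (SD, n = 4) to 0.708 ± 0.0772 (SD, n = 4) in old rats. The Per3 to Arntl ratio was at most 2.25 in young trained and 2.61 in old trained rats. It was at least 2.85 in young sedentary and 2.78 in old sedentary rats. The ratios were formed after the levels were seen and were not tested.

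**Figure D2:**
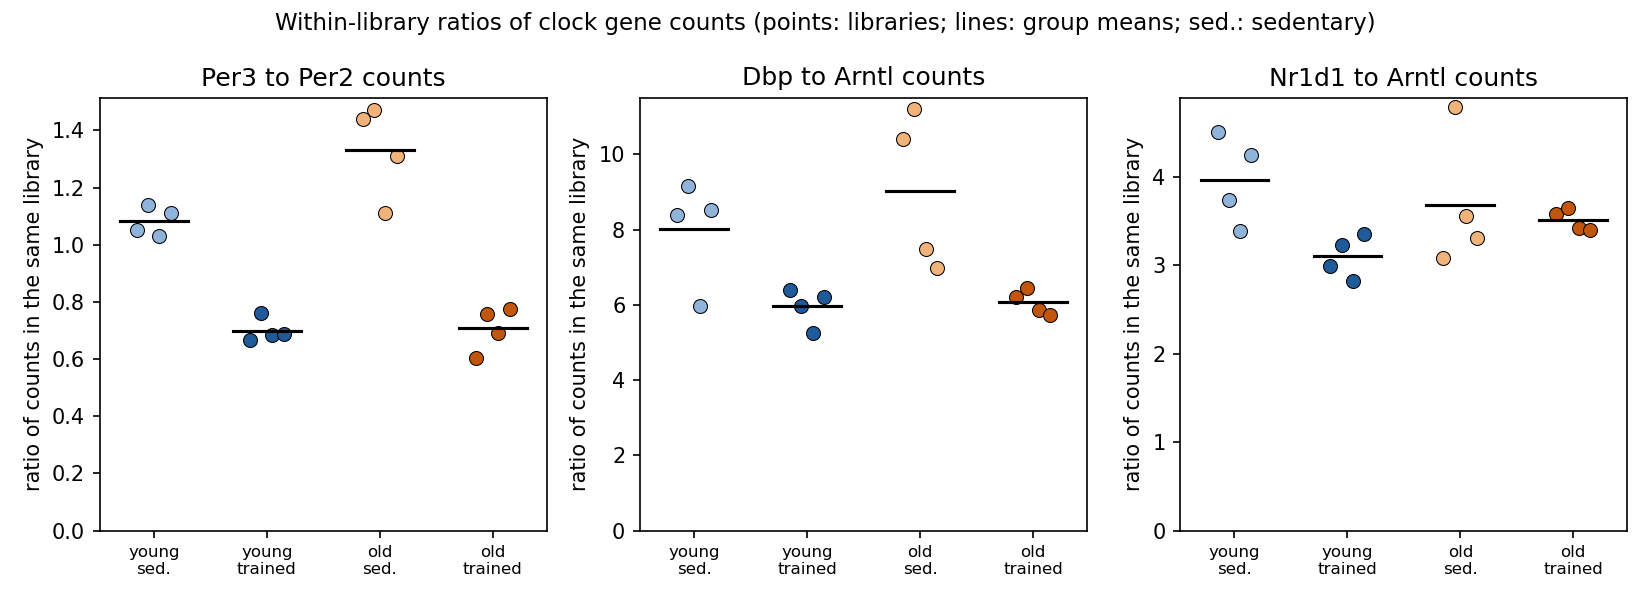
Ratio of the counts of 2 clock genes in the same library on the vertical axis, for the 4 groups, with a point for each library and a line for each group mean. The Per3 to Per2 ratio was at most 0.774 in trained and at least 1.03 in sedentary libraries, while the Nr1d1 to Arntl ratio of old trained rats, 3.40 to 3.64, lay inside the old sedentary range of 3.08 to 4.79.

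Dbp is the output gene nearest to the loop, switched on directly by CLOCK and ARNTL. It stood at 206, 229, 158 and 205 CPM in young sedentary and at 156, 149, 148 and 168 CPM in young trained rats. Young sedentary replicate 3, at 158 CPM, lay within the young trained range. In old rats Dbp stood at 264, 252, 193 and 195 CPM when sedentary and at 190, 171, 160 and 141 CPM when trained. The old groups did not overlap, but old sedentary replicates 3 and 4 lay just above the highest trained library. Dbp fell by 26.9% in old rats (log2 fold change -0.45, SE 0.12, edgeR adjusted p = 0.0142), a call that was lost without old sedentary replicate 1 (adjusted p = 0.0516) or without old trained replicate 4 (adjusted p = 0.0505). In young rats the log2 fold change was -0.36 (SE 0.12, edgeR adjusted p = 0.053). Dbp did pass in young rats in 4 of 8 alternatives. These were the DESeq2 Wald test (adjusted p = 0.0407), limma voom (0.0136), edgeR with only the 8 young libraries (0.0244) and edgeR with the replicate number as a block (0.031). With 1 surrogate variable it was at -0.22 (edgeR adjusted p = 0.264). Of 16 edgeR fits with 1 library left out, 4 called it, with adjusted p up to 0.148. The old minus young difference of the main log2 fold changes of Dbp was -0.09 (SE 0.175, edgeR interaction adjusted p = 0.842, 95% interval -0.47 to 0.29).

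Nr1d1 encodes the nuclear receptor that holds Arntl down. It stood at 111, 93.2, 90.2 and 102 CPM in young sedentary and at 72.8, 80.5, 79.7 and 90.7 CPM in young trained rats, groups that met at 90.2 and 90.7 CPM. Its log2 fold change in young rats was -0.29 (SE 0.10, edgeR adjusted p = 0.0632). Nr1d1 passed there in limma voom (-0.34, adjusted p = 0.00915) and in edgeR with only the 8 young libraries (-0.31, adjusted p = 0.0266), which were 2 of 8 alternatives. Of 16 edgeR fits with 1 library left out, 2 called it, without old sedentary replicate 1 (adjusted p = 0.0455) or 2 (adjusted p = 0.0468). In old rats it stood at 78.1, 108, 91.7 and 92.3 CPM when sedentary and at 109, 96.1, 93.2 and 83.2 CPM when trained, and the log2 fold change was 0.04 (SE 0.10, adjusted p = 0.818 in edgeR). Nr1d1 shares part of its locus with Thra, a thyroid hormone receptor gene, in RefSeq, and Per2 and Clock share theirs with long noncoding RNA genes. The sources used here do not give the strand setting of the counting, so reads of these overlaps are uncertain.

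Arntl and Clock encode the activator pair. Arntl stood at 24.6, 25.0, 26.6 and 24.1 CPM in young sedentary, 24.4, 24.9, 28.2 and 27.1 CPM in young trained, 25.3, 22.5, 25.8 and 27.9 CPM in old sedentary and 30.5, 26.4, 27.3 and 24.5 CPM in old trained rats. All 4 groups overlapped. The trained minus sedentary log2 fold change of Arntl was 0.06 in young rats (SE 0.09, edgeR adjusted p = 0.645, 95% interval -0.13 to 0.25) and 0.09 in old rats (SE 0.09, edgeR adjusted p = 0.478, 95% interval -0.09 to 0.28). Clock stood at 62.0, 61.4, 70.6 and 56.3 CPM in young sedentary and at 56.0, 42.3, 58.0 and 29.3 CPM in young trained rats. Replicates 2 and 4 of the young trained group were the lowest of all 16 libraries. Its log2 fold change in young rats was -0.43 (SE 0.15, edgeR adjusted p = 0.0614), on the same side as those of Per1, Per3, Dbp and Nr1d1. Clock passed there, as lower in trained rats, in the DESeq2 Wald test (adjusted p = 0.0403), in edgeR on counts thinned to the smallest total (0.0498), and in edgeR without young trained replicate 1 (0.0413) or 3 (0.0221). In old rats Clock stood at 58.5, 68.7, 61.2 and 62.5 CPM when sedentary and at 60.0, 59.2, 61.1 and 68.0 CPM when trained (log2 fold change -0.02, SE 0.15, edgeR adjusted p = 0.958, 95% interval -0.35 to 0.32).

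**Figure D3:**
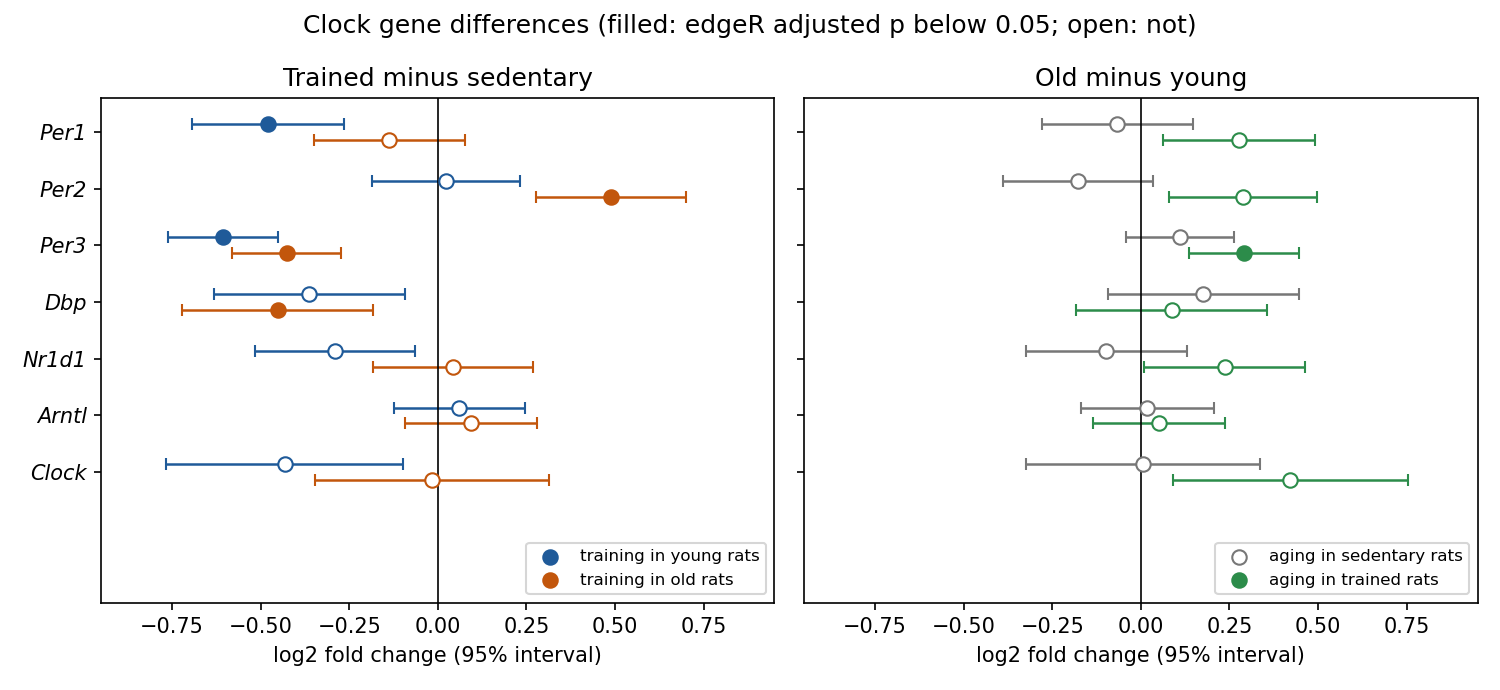
Log2 fold change of each clock gene on the horizontal axis, trained minus sedentary on the left and old minus young on the right, with 95% intervals from 12 residual degrees of freedom and filled points where the edgeR adjusted p was below 0.05. Per3 lay below 0 for training at both ages, at -0.61 and -0.43, and the intervals of Arntl included 0 in all 4 comparisons.

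Training in young rats thus gave 2 called genes of 7, both lower (17.1% of all genes tested were called, 10.3% lower), and the groups did not overlap for 2 of 7 (25.2% of all genes tested). Of the 5 output and repressor genes, Per1, Per3, Dbp and Nr1d1 had negative and Per2 a positive estimate, while of the activators Arntl had a positive and Clock a negative one. Training in old rats gave 3 called genes of 7, of which Per3 and Dbp were lower and Per2 was higher (24.1% of all genes tested were called, 12.6% lower and 11.5% higher), and the groups did not overlap for 3 of 7 (21.1% of all genes tested). There the output genes themselves were split, and neither activator passed in edgeR. Neither the output and repressor genes nor the activators all had estimates of the same sign at either age. The estimate of Arntl was positive at both ages, while those of Per1, Per3 and Dbp were negative and that of Per2 positive. That of Nr1d1 was negative in young and positive in old rats. A shift in the hour of sampling was not tested, because the hour is not given. Arntl was not called by edgeR, DESeq2 or limma voom, Clock where called was lower in the same direction as Per1 and Per3, and the interval of Arntl allowed a rise of up to 0.25 in young and 0.28 in old rats on the log2 scale. The median of the 7 log2 fold changes was -0.36 in young rats, against -0.02 for all genes tested, and -0.02 in old rats, against -0.01.

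The mean log2 CPM of the 5 output and repressor genes minus that of the 2 activators lay between 1.15 and 1.54 in young sedentary, 1.02 and 1.62 in young trained, 1.22 and 1.57 in old sedentary and 1.19 and 1.32 in old trained rats. The ranges overlapped in every pair of groups. Genes can cancel in it, since Per2 rose where Per3 and Dbp fell in old rats. Clock, which is subtracted, had a negative estimate in young rats, as Per1, Per3, Dbp and Nr1d1 did. The overlap therefore does not show whether Arntl moved against single output genes, and no test was made of this difference. Over the 16 libraries, the genes whose log2 CPM followed it most closely were ENSRNOG00000051499 (Pearson r = 0.827) and ENSRNOG00000017164 (r = 0.81), and those that ran most against it were ENSRNOG00000016396 (r = -0.895) and ENSRNOG00000006973 (r = -0.851). These were picked as the extremes of all genes tested, the libraries share the 4 groups, and no p is given.

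From rat to rat, the relation of Arntl to the output genes was examined within the 8 sedentary and within the 8 trained libraries, since these lie apart, in a family of 12 tests. In sedentary rats Arntl ran against Per3 (Pearson r = -0.798, exact permutation p = 0.0222, adjusted p = 0.182; Spearman rho = -0.595, exact permutation p = 0.132, adjusted p = 0.396). Its r was also negative with Per1, at -0.669, with Dbp, at -0.588, and with Nr1d1, at -0.572. In trained rats r was positive with Nr1d1 (Pearson r = 0.748, exact permutation p = 0.0303, adjusted p = 0.182; Spearman rho = 0.548, exact permutation p = 0.171, adjusted p = 0.41). It was positive with Dbp as well (Pearson r = 0.707, exact permutation p = 0.0463, adjusted p = 0.185; Spearman rho = 0.452, exact permutation p = 0.267, adjusted p = 0.534). None of the 12 passed after adjustment in these log2 CPM values, and whether sedentary and trained rats differed in r was not tested. Without the 2 libraries farthest from the median of Arntl, r was -0.394 for Per3 in sedentary rats and 0.239 for Nr1d1 and 0.458 for Dbp in trained rats, so the first 2 of these values rest largely on those libraries. With the mean of each age group removed, r of Arntl and Per3 in sedentary rats was -0.977, and -0.883 without the 2 farthest libraries. Its adjusted p was 0.00416 when values were permuted over all 8 libraries. It was 0.0833 when they were permuted only within each age, the exact permutation test for such deviations (unadjusted p = 0.00694), which gave a within-age Spearman rho of -0.9 (p = 0.0243, adjusted p = 0.292). Without young trained replicate 3, r of Arntl and Nr1d1 in trained rats was 0.926 (exact permutation adjusted p = 0.0476).

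**Figure D4:**
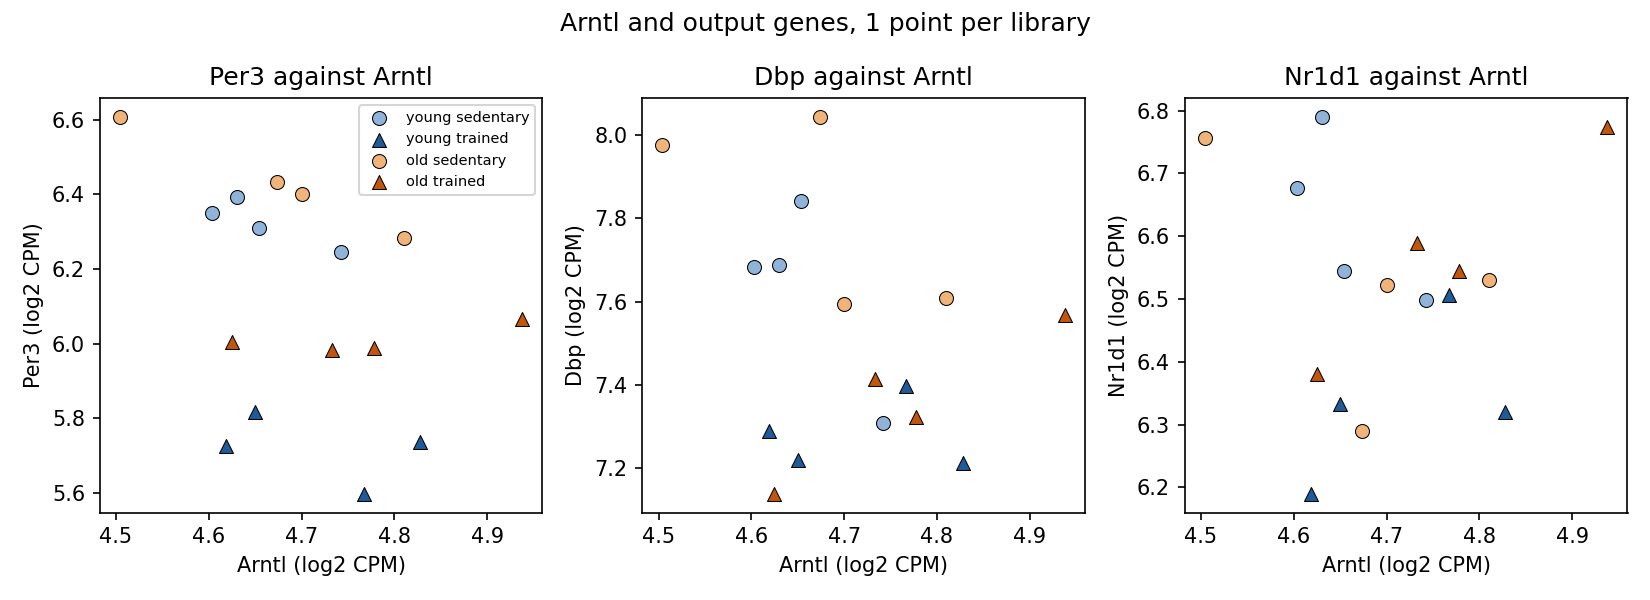
Log2 CPM of Per3, Dbp and Nr1d1 on the vertical axes against that of Arntl on the horizontal axis, with a point for each of 16 libraries, circles for sedentary and triangles for trained rats. Within sedentary rats Per3 was lower where Arntl was higher (r = -0.798), while within trained rats Nr1d1 was higher where Arntl was higher (r = 0.748), neither passing after adjustment.

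Age differences in the clock genes were fewer. In sedentary rats 0 of the 7 genes passed in edgeR, in the DESeq2 Wald test or in limma voom, 0 had an unadjusted p below 0.05, and 1.51% of all genes tested passed in edgeR. The lowest adjusted p was 0.32, for Per2 (log2 fold change -0.18, SE 0.10). No clock gene separated old from young sedentary libraries, against 7.93% of all genes tested. In trained rats 1 of the 7 passed, against 4.98% of all genes tested (3.33% higher). Per3 rose by 22.3% from young trained to old trained rats (log2 fold change 0.29, SE 0.07, edgeR adjusted p = 0.029), and those groups did not overlap, as for 3 of the 7 genes and 17.0% of all genes tested. This call was lost in each of 6 fits that left out 1 library, namely young trained replicate 1 or 4 or any of the 4 old trained libraries, with adjusted p up to 0.11, while the log2 fold change in those fits stayed between 0.245 and 0.30. All 7 estimates in trained rats were positive, among them Clock at 0.42 (SE 0.15, edgeR adjusted p = 0.116), Per2 at 0.29 (SE 0.10, adjusted p = 0.0907) and Per1 at 0.28 (SE 0.10, adjusted p = 0.11). Per1 passed there in limma voom (0.34, adjusted p = 0.0217), and Per2 in edgeR with 1 surrogate variable (0.29, adjusted p = 0.0496). Each was called in 1 of 8 alternatives. This comparison shares the young trained libraries with training in young rats, so the 2 sets of values are not separate evidence. Averaged over training, only Per3 passed (log2 fold change 0.20, SE 0.05, edgeR adjusted p = 0.0188), and 10.5% of all genes tested did (5.51% higher).

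The interaction of age and training asks whether the training difference itself differed by age. In it 0 of the 7 genes passed in edgeR, 0 in the DESeq2 Wald test and 0 in limma voom, as against 0% of all genes tested in edgeR. An unadjusted p below 0.05 was found for 3 of them: Per2 (0.00337), Per1 (0.0246) and Nr1d1 (0.0367). The simulated data held no interaction, so the power of this test was not measured. The pass of Per1 in young rats and of Per2 and Dbp in old rats therefore does not show that these genes responded differently by age.

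The calls in old rats, for the clock genes as for nearly all others, were lost in a pair of settings that bear on the old sedentary libraries. With 1 surrogate variable, a term estimated from the counts, 0 of the 3 genes passed, and the genes called for training in old rats went from 3618 to 3 of 15035. That variable lay between 0.112 and 0.217 in the 8 trained libraries and split both sedentary groups. It lay between -0.486 and -0.445 in old sedentary replicates 1, 2 and 4, with replicate 3 at 0.0243. In young sedentary replicates 1 to 4 it was 0.118, -0.197, 0.133 and -0.118. The variable and the training difference in old rats therefore largely cannot be told apart. Per3 was at -0.38 (SE 0.12) in that fit, against -0.43, while Per2 was at 0.25 (SE 0.15) and Dbp at -0.10 (SE 0.18) on the log2 scale. With old sedentary replicate 3 as the sole library of its group, 0 of the 3 and 0 of all 15035 genes passed, with Per2 at 0.28 (SE 0.14), Per3 at -0.39 (SE 0.09) and Dbp at -0.23 (SE 0.17). That fit assumes that the lone library varies like those of the other groups. In both settings Per1 and Per3 still passed in young rats, and Per3 still passed for training averaged over age.

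**Figure D5:**
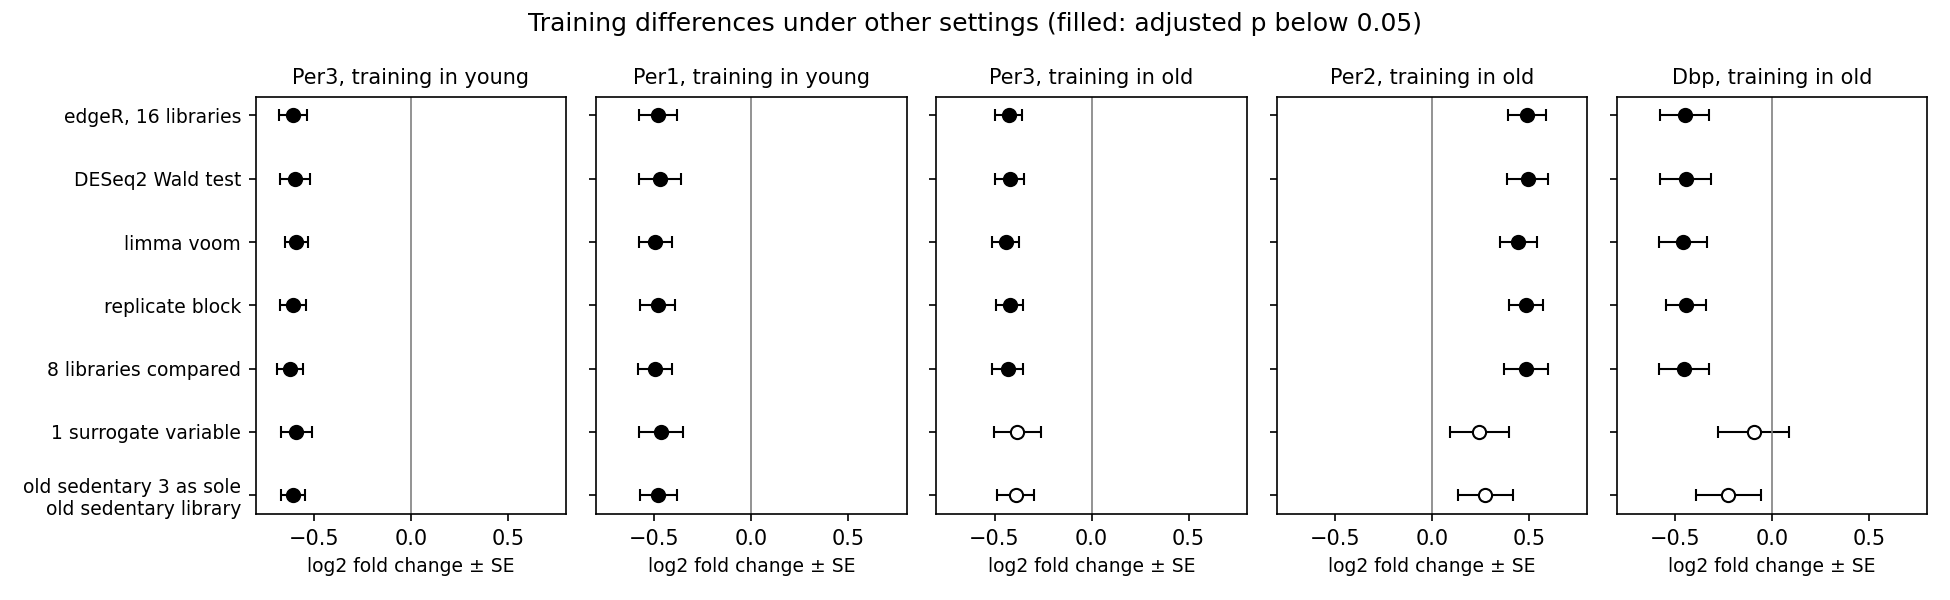
Log2 fold change with its SE on the horizontal axis for the 5 training calls, in each of 7 settings on the vertical axis, filled where the adjusted p was below 0.05. Per3 in old rats kept its size, from -0.44 to -0.38, while Dbp in old rats went from -0.45 to -0.10 with 1 surrogate variable.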

How the data were processed

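The deposited values are raw gene counts, 1 column per library, with no normalization. The submitters' processing notes name build Rnor_6.0 and the tools TopHat2 2.1.1, HTSeq, SAMtools, Trimmomatic, FastQC and DESeq2. Libraries were made from poly(A) RNA, per the labels' protocols, which state 5 libraries per condition; 4 per group were analysed here. The clock genes and all lists were chosen with earlier results of these data known.

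Counts were fitted in edgeR 4.0.16 (R 4.3.3) over all 16 libraries, with filterByExpr by group, TMM scaling, 1 mean per group and robust glmQLFit, leaving 12 residual degrees of freedom. The 7 contrasts were tested 2-sided with glmQLFTest, with Benjamini-Hochberg adjustment over 15035 genes and calls at 0.05. The SE is the log2 fold change divided by the square root of F. The 95% intervals are that SE with a t distribution of 12 degrees of freedom. The test of edgeR adds degrees of freedom shared across genes, so these intervals are not exactly those of the test. Log2 CPM used a prior count of 2. Levels are not compared between genes, because no lengths were used. The labels describe the 4 libraries of a group as biological replicates, so the error is that between rats.

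The named genes are the 7 clock genes and, by ID, the 2 highest and 2 lowest correlates of their output minus activator difference. Other clock pathway genes, genes sharing inducers with Per1, and markers of hippocampus and of other cell types were listed by symbol and were not analysed here, because 0 IDs matched the RefSeq table (GRCr8).

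In simulated counts for training in young rats, 58% of 100 genes changed 1.5-fold and 3% of 100 changed 1.25-fold were recovered among 14919 genes. For training in old rats the shares were 68% and 7%, and averaged over age 92% and 29%.

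Alternatives were limma 3.58.1 voom with quality weights, the Wald test of DESeq2 1.42.0, its size factors in edgeR, 2 other filters, a replicate block, 1 surrogate variable (sva 3.50.0), each library left out, and only the 8 libraries compared. Added after the data were seen were old sedentary replicate 3 as sole old sedentary library, thinning to the smallest total, and permutation within age for correlations of deviations from group means. With an intercept-only null the surrogate variable was away from 0 in 1 library only, so its null model was set to age, after that was seen.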

Additional observations from a re-analysis of the deposited data

Results flagged for a closer look

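Per1 in old sedentary replicate 2 stood at 124 CPM, far from the other old sedentary libraries, which lay at 104 to 105 CPM. It was the sole library standing apart among 28 sets of 4 libraries (7 genes in 4 groups), where chance marks about 1 in 20 sets.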

How the results depend on the processing

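In young rats the main count of 2 clock genes called for training became 4 under limma voom, under the Wald test of DESeq2, in a fit of only the 8 libraries compared and with old sedentary replicate 3 as sole old sedentary library. Per1 and Per3 were among them each time, with Dbp and Clock added under the Wald test and Dbp and Nr1d1 in the other 3. For training in old rats it was 0 with 1 surrogate variable and 0 with that sole library, against 3. For training averaged over age it was 1 in both settings, against 4, and for aging averaged over training 0 in both, against 1. For aging in trained rats it was 2 with limma voom and 2 with 1 surrogate variable, against 1. The cause was not tested.

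With 1 library left out, the counts ranged from 2 to 4 for training in young rats, 2 to 3 in old rats, 4 to 5 averaged over age, 0 to 2 for aging in trained rats and 0 to 1 for the interaction.

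The sign turned only for estimates that were not called. With other scaling, tests or filters, Clock for aging in sedentary rats was -0.000112 (size factors), -0.000306 (DESeq2 Wald test), -0.00737 (no filter), -0.0301 (sole library) and -0.0111 (thinned), on the log2 scale. With 1 surrogate variable, Per2 for training in young rats was -0.072, Dbp for aging in sedentary rats -0.0439 and Dbp for the interaction 0.123. With the sole library, Clock for training in old rats was 0.0199, Per2 and Dbp for aging in sedentary rats 0.0358 and -0.0499, and Dbp for the interaction 0.136. Thinned, Arntl was -0.0258 for aging in sedentary rats and -0.00801 averaged over training.

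With 1 library left out, log2 fold changes ranged from -0.00752 to 0.0679 for Per2 and training in young rats, from -0.0627 to 0.0316 for Clock and from -0.0302 to 0.126 for Nr1d1 and training in old rats, from -0.0302 to 0.0717 for Arntl and from -0.0426 to 0.0676 for Clock and aging in sedentary rats, from -0.00519 to 0.0983 for Arntl and aging in trained rats, and from -0.163 to 0.00641 for Dbp and from -0.0231 to 0.0816 for Arntl in the interaction.

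The r of Arntl with Clock was 0.0251 (sedentary) and -0.0403 (trained) with size factors. As deviations from group means in trained rats it was -0.179, and that with Per3 was -0.00114, while in sedentary rats that with Per3 was -0.977 (exact permutation within age, adjusted p = 0.0833). With 1 library left out, r ranged in sedentary rats from -0.314 to 0.58 for Clock and from -0.527 to 0.181 for Per2, and in trained rats from -0.162 to 0.228 for Clock, from -0.406 to 0.374 for Per1 and from -0.187 to 0.443 for Per3.

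Whether the replicate numbers pair the rats is not given by the labels and was not settled by the data, so they were treated as numbers only. Deviations correlated above 0.1 in 12 of 24 same-numbered pairs, and 23 of 48 best matches, each among 4 libraries, shared a number. With the replicate block 3 clock genes were called for training in young rats, with Dbp at -0.35 (edgeR adjusted p = 0.031), and 3 for training in old rats. Of all 15035 genes, 2835 were called in young rats with the block, against 2572 without it, and 3743 in old rats, against 3618.

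In simulated counts with 4 rats a group, 3% of genes changed 1.25-fold were recovered for training in young rats. Those counts held 100 genes changed 1.25-fold and 100 changed 1.5-fold, far fewer than the 2572 called in the real counts. The adjusted p depends on how many genes change, so this share does not measure how often such a difference in a clock gene would be missed.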

Other observations

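Clock was the most variable of the 7 genes in a single group. Its coefficient of variation was 28.8% in young trained rats, against 6.52% to 9.50% in the other groups. Replicates 2 and 4, at 42.3 and 29.3 CPM, were also the lowest of the 16 libraries on the second principal component, at -30.2 and -42.4, while replicates 1 and 3, at 56.0 and 58.0 CPM, lay at -4.07 and -3.04. In replicate 4 Clock was lowest while Per1 (94.6 CPM), Nr1d1 (90.7 CPM) and Dbp (168 CPM) were the highest of the young trained libraries. Per3 (48.2 CPM) and Per2 (70.2 CPM) were, like Clock, the lowest of those libraries in replicate 4. The part of that component in the Clock result was not tested.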
